A study of Homo sapiens with 6 samples.

Results

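The genes described here encode subunits of the Polycomb repressive complexes. They are the 9 genes EZH1, EZH2, EED, SUZ12, JARID2, BMI1, RING1, RNF2 and CBX8, taken by symbol from the 19792 genes of the deposited table, and all 9 had a row. The transcripts were measured by RNA-seq in BT-549/tet-WDR5shRNA cells. BT-549 is a line of human triple-negative breast cancer, and these cells bear an shRNA against WDR5 behind a tetracycline-inducible promoter, on a vector that gives puromycin resistance. Of 6 cultures, 3 were given vehicle (0.1% DMSO) and 3 were given 500 ng/ml doxycycline (DOX), which switches the shRNA on, for 7 days by the study's text. Both groups carried the inducible vector, and no group with a control shRNA was analysed here, so an effect of the drug itself and of WDR5 loss cannot be told apart in this design. WDR5 is a scaffold of the COMPASS complexes, which methylate histone H3 at lysine 4, and it has also been found with PRC1 that contains PCGF6.

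The values below are the authors' mean normalized count of each gene over all 6 libraries, vehicle and DOX together. The table held no column of a single library, and the authors' own columns comparing DOX with vehicle were not used. The difference between DOX and vehicle, the spread between cultures and the depth of each library were therefore not analysed here, and the values carry no error. The order of 2 genes that lie close together could not be tested against replicate spread, nor could genes with a similar pattern across samples be sought. The mean normalized counts of all genes summed to 26551206, of which the 9 Polycomb genes held 0.0351%. WDR5 had a mean of 1143 over both groups, which gives no check of its silencing.

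Polycomb proteins keep developmental genes silent through 2 families of complexes. PRC2 methylates histone H3 at lysine 27 through the alternative catalytic subunits EZH2 and EZH1, which need EED and SUZ12 for activity. JARID2 is an accessory subunit that helps to bring PRC2 to chromatin. PRC1 ubiquitinates histone H2A through the ligases RING1 (RING1A) and RNF2 (RING1B), each paired with 1 PCGF protein, of which BMI1 (PCGF4) is one. In canonical PRC1 a CBX protein, such as CBX8, reads the mark left by PRC2. EZH2 is known as a gene of dividing cells that is often high in aggressive breast cancer, whereas EZH1 is known to persist in resting cells.

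Promoters are shown for the catalytic subunits of both complexes and for EED, because they span the range of CpG density among the members, which the choice of the genes did not use. Each window is a RefSeq promoter (GRCh38.p14) of 300 bases on the gene's own strand, ending 50 bases after the start, with every CG dinucleotide in capitals. A window was found for 8 of the 9 genes, all but CBX8. Shown are EZH2 at chr7:148884242-148884541 (minus strand), the densest first window, its alternative subunit EZH1 at chr17:42744991-42745290 (minus strand), the PRC1 ligases RING1 at chr6:33208250-33208549 and RNF2 at chr1:185045308-185045607 (both plus strand), and EED at chr11:86244503-86244802 (plus strand), the sparsest.
EZH2: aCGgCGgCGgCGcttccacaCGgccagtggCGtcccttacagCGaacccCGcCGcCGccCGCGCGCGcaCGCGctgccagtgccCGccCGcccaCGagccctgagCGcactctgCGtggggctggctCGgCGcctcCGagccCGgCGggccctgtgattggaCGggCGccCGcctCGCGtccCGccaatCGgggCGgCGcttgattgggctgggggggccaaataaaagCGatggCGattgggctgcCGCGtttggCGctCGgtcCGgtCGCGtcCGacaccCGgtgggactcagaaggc
EZH1: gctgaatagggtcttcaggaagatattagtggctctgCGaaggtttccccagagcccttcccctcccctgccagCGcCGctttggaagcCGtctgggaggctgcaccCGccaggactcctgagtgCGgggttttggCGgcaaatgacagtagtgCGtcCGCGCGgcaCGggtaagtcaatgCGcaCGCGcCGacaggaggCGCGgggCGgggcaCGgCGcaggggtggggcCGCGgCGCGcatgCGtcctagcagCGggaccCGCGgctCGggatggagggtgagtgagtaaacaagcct
RING1: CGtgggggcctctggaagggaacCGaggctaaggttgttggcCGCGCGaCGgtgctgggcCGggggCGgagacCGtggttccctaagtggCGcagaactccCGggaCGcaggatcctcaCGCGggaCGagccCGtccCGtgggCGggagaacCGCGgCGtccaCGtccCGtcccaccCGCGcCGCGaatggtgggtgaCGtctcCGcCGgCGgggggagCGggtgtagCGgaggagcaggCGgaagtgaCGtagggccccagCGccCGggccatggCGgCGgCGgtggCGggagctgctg
RNF2: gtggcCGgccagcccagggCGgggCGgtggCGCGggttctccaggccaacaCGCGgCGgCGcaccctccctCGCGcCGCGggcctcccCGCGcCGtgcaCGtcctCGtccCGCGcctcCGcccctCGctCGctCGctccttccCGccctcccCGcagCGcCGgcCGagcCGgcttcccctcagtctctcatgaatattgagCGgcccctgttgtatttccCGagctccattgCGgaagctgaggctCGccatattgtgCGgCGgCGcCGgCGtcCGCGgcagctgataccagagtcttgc
EED: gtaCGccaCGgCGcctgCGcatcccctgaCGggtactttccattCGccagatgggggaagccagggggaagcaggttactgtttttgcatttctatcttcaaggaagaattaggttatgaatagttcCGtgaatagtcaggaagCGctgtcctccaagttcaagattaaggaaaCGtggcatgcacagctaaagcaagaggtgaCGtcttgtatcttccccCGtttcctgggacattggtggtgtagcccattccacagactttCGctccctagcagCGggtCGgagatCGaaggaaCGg

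The EZH2 window held 46 CG dinucleotides and that of RNF2 held 41, against a median of 26 over 9725 promoters of the same length (quartiles 19 and 35). EZH1 held 30 and EED only 16. The first windows of SUZ12, RING1 and BMI1 held 40, 41 and 36, and that of JARID2 held 24. Thus 6 of the 8 genes were above the median promoter, and EED and JARID2 were below it. A second RefSeq start was listed for EZH2, JARID2 and BMI1, with 45, 40 and 65 CG dinucleotides. The E2F motif GGCGGGAA, searched on both strands of 11 windows, was found in 1, that of RNF2, where it reads on the opposite strand. It was found in 5.17% of the 9725 promoters compared, which are 1 first window per gene. The NF-κB consensus, also searched on both strands, was found in 1 window, the second start of BMI1. No first window of the 8 genes held it. It was found in 8.76% of the 9725 promoters compared, which include no second starts. A match of letters describes the sequence only, and no binding was measured here.

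EZH2 and SUZ12 were the most abundant of the 9 transcripts and BMI1 and CBX8 the least. The mean normalized count was 2929 for SUZ12, 2371 for EZH2 and 1256 for RNF2, then 773 for JARID2, 744 for RING1, 658 for EED and 420 for EZH1. CBX8 had a mean of 118 and BMI1 one of 45.4. By this count, which is not corrected for gene length, 7 of the 9 were above the median of all 19792 genes, which was 187, and CBX8 and BMI1 were below it. SUZ12 stood at rank 2173 from the top and BMI1 at rank 11763. Against only the protein-coding genes whose mean normalized count reached 10, 3 of the 9 were above the median in counts.

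**Figure D1:**
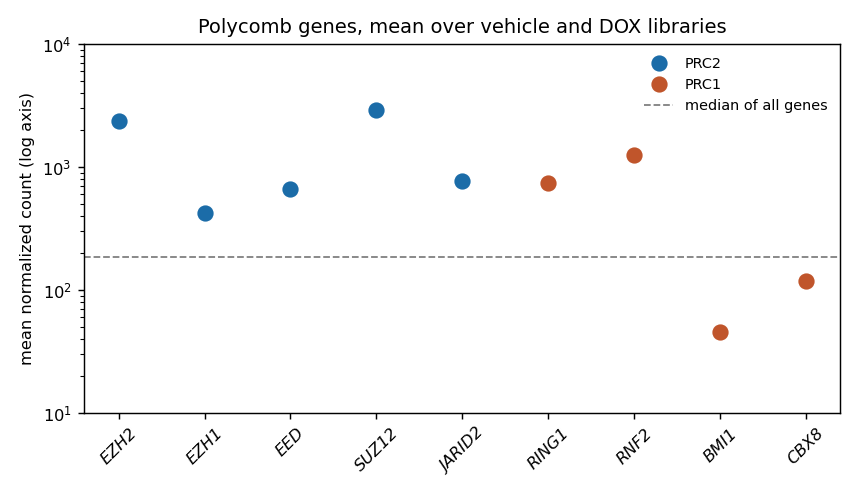
The mean normalized count of each of the 9 genes over the vehicle and DOX libraries together (log axis), with PRC2 genes in blue, PRC1 genes in orange and the median of all 19792 genes (187) as a dashed line. Each point is 1 pooled value with no error, and only CBX8 (118) and BMI1 (45.4) lie under the line.

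To compare genes with each other, the mean normalized count was divided by the exonic length of the gene's MANE Select transcript, the isoform that RefSeq and Ensembl agree on. The reference was the 12158 protein-coding genes whose mean normalized count reached 10, with a median that was 233 counts per kilobase (quartiles 70.0 and 625). On this scale 5 of the 9 genes were above the median gene, namely EZH2, SUZ12, RING1, RNF2 and EED. JARID2, EZH1, CBX8 and BMI1 were below it.

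Of the PRC2 catalytic subunits, EZH2 held most of the message. EZH2 (chr7:148807257-148884321, minus strand, GRCh38, 20 exons, 2253 coding bases) had 893 counts per kilobase, at percentile 82.4 of the reference genes. EZH1 (chr17:42700275-42745049, minus strand, 21 exons, 2241 coding bases) had 90.6, at percentile 29.5. The ratio of EZH2 to EZH1 was 9.86 per kilobase and 5.65 in counts, so that EZH2 made up 90.8% of their summed level per kilobase. The direction was the same with every length tried, but the union of all annotated exons, which is 10774 bases for EZH2 against 2654 in the MANE Select transcript, lowered the EZH2 share to 78.6%.

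SUZ12 (chr17:31937007-32001038, plus strand, 16 exons, 2217 coding bases), which holds the complex together, had 652 counts per kilobase. EED (chr11:86201212-86278813, plus strand, 12 exons, 1323 coding bases), the WD40 protein that binds methylated lysine 27, had 315. The level of SUZ12 was 2.07 times that of EED per kilobase, 4.75 times with the union of exons and 4.45 times in counts, and that of EZH2 was 2.83 times that of EED. EZH2 stood above SUZ12 by 1.37 times per kilobase, but this order rests on the length used. SUZ12 was the higher of the pair in counts, with the union of exons (447 against 220 per kilobase) and by coding length (1321 against 1052).

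JARID2 (chr6:15246069-15522042, plus strand, 18 exons, 3738 coding bases) had 129 counts per kilobase. EZH2 was 6.94 times higher, a ratio that was 1.78 with the union of exons and 3.07 in counts. JARID2 marks the PRC2.2 form of the complex together with AEBP2, a zinc finger protein at 302. The alternative PRC2.1 form is marked by the Polycomb-like proteins PHF1, PHF19 and MTF2, which had 723, 505 and 276 counts per kilobase. The summed level of these 3 genes was 1503 per kilobase, against 430 for the 2 genes JARID2 and AEBP2. The gap depended on the length used, with 963 against 384 by the union of exons and 2796 against 1372 by coding length. EPOP and LCOR, listed here with the PRC2 accessory genes, had 163 and 76.0. These values are of whole genes, and different products of a gene were not told apart. RBBP7 and RBBP4, histone chaperones that PRC2 shares with other chromatin complexes, had 1914 and 1756.

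The alternative ligases of PRC1 were close to each other. RING1 (chr6:33208500-33212722, plus strand, 7 exons, 1218 coding bases) had 427 counts per kilobase, at percentile 66.0. RNF2 (chr1:185045526-185102603, plus strand, 7 exons, 1008 coding bases) had 369, at percentile 62.1. RING1 made up 53.7% of their sum and RNF2 46.3%. This order reversed with the length used, since RNF2 was 1.69 times higher in counts and made up 67.1% of the sum by coding length.

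BMI1 (chr10:22321099-22331484, plus strand, 10 exons, 978 coding bases) was the lowest of the 9 genes, with 12.8 counts per kilobase, at percentile 8.56. It was also the lowest of the 39 Polycomb subunit genes compared here. Among the 6 PCGF genes, which define the forms of PRC1, BMI1 held 1.06% of the summed level per kilobase. PCGF2 (MEL18), the closest relative of BMI1 and its alternative in canonical PRC1, had 387 and was 30.2 times higher. PCGF6, PCGF1 and PCGF3, of the variant complexes, had 277, 250 and 244 counts per kilobase. PCGF5 had 42.8. RNF2, a ligase that BMI1 can pair with, was 28.7 times higher than BMI1.

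BMI1 shares sequence with other genes. The read-through gene COMMD3-BMI1, which runs from COMMD3 into BMI1, shares 1000 of the 3540 exonic bases of BMI1 (28.2%) on the same strand in GENCODE 44. There the read-through gene ends 8.443 kilobases after the BMI1 start, inside the last exon of BMI1, which runs to 10.385. RefSeq places its end at the end of BMI1, at chr10:22316388-22331484, so the share may be larger than 28.2%. The share by RefSeq exons was not computed. COMMD3-BMI1 had no row to analyse. COMMD3, the upstream gene, shares 60.3% of its exonic bases with the read-through gene and had a mean normalized count of 104. In addition, 28.7% of the BMI1 transcript has a copy of at least 95% identity elsewhere, on chromosomes 2 and X. The counter and its treatment of shared or multiply aligned reads are not given in the sources used here, and the effect of either on the BMI1 value was not tested.

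**Figure D2:**
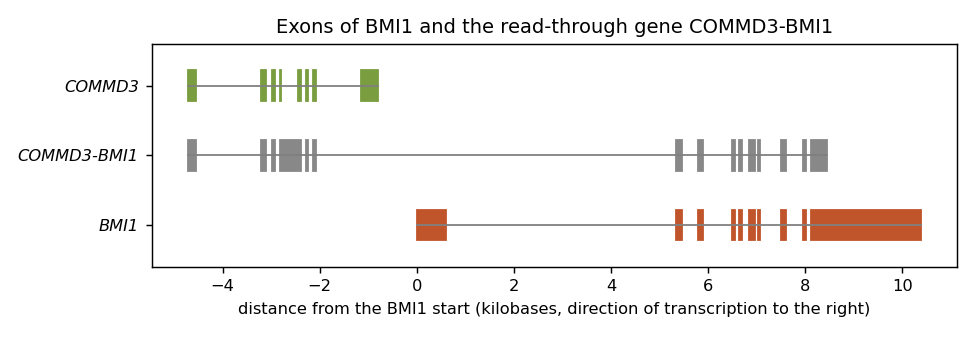
Exons (boxes) of COMMD3, COMMD3-BMI1 and BMI1 in GENCODE 44, by distance from the BMI1 start in kilobases, transcribed from left to right. The read-through gene uses the exons of BMI1 other than its first, the last in part, and 1000 of the 3540 exonic bases of BMI1 are shared.

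CBX8 (chr17:79792132-79801683, minus strand, 5 exons, 1167 coding bases) was the lowest of the 4 CBX genes compared here (CBX2, CBX6, CBX7 and CBX8). CBX8 had 31.4 counts per kilobase, at percentile 15.4, and held 4.65% of the summed level of these 4. CBX6 had 512 and was 16.3 times higher, or 26.3 times in counts. CBX7 and CBX2 had 70.3 and 61.6. CBX6 thus held 75.8% of the summed level of the 4 genes.

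**Figure D3:**
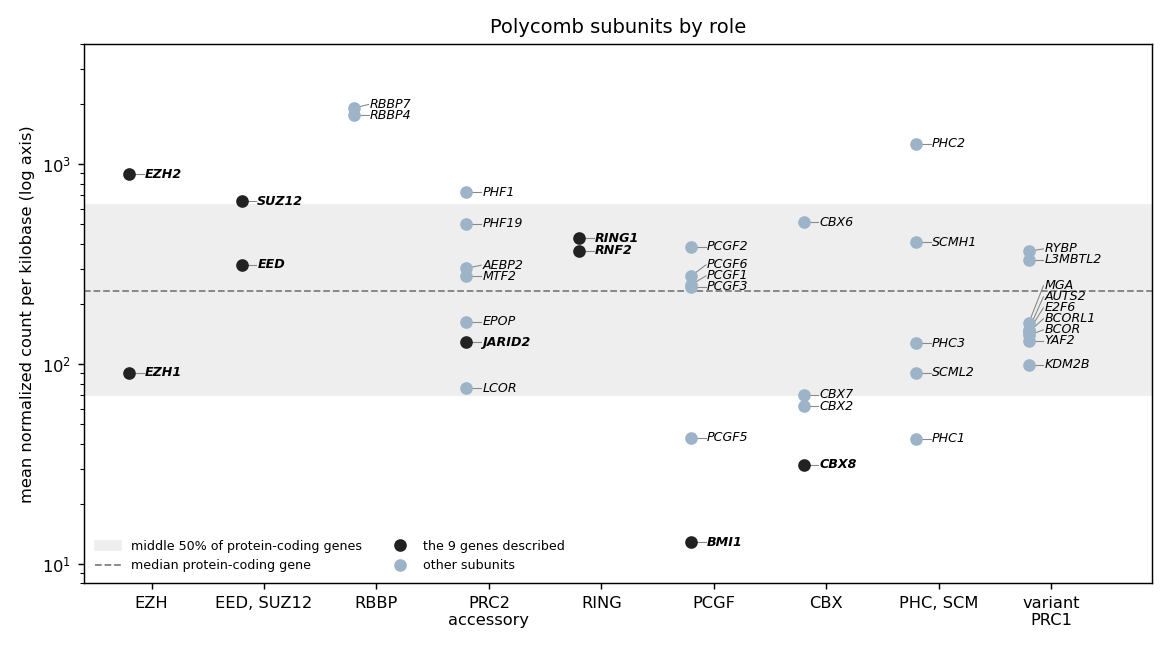
Mean normalized count per kilobase of the MANE Select transcript (log axis) for the Polycomb subunit genes by role, with the 9 genes described in black and other subunits in blue. The dashed line is the median protein-coding gene (233) and the grey band the middle 50% (70.0 to 625), with EZH2 and SUZ12 above the band and CBX8 and BMI1 below it.

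Among the other subunits of PRC1, PHC2, a polyhomeotic protein that joins PRC1 complexes by its SAM domain, had 1267 counts per kilobase, whereas PHC3 and PHC1 had 127 and 42.3. SCMH1 and SCML2, of the SCM family, had 409 and 90.8. RYBP and YAF2, which take the place of the CBX protein in variant PRC1, had 367 and 131. The variant subunits BCOR, BCORL1, E2F6, AUTS2, MGA and KDM2B were between 99.4 and 161, and L3MBTL2 was at 333. Of 40 Polycomb subunit genes compared, 39 had a row, each with at least 10 mean normalized counts, and 20 were above the median gene. EZHIP, an inhibitor of PRC2, had no row to analyse.

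By role, the summed level per kilobase was 984 for EZH1 and EZH2, 652 for SUZ12 and 315 for EED. In PRC1 it was 796 for the ligases RING1 and RNF2, 1214 for the PCGF genes, 675 for the 4 CBX genes compared, 1437 for the PHC genes and 498 for RYBP and YAF2. The order of roles depended on the length used. With the union of exons EZH1 and EZH2 summed to 280 against 447 for SUZ12, and by coding length RYBP and YAF2 (5057) exceeded the CBX genes (3171) and the PCGF genes (4015) exceeded the PHC genes (2579). These sums are of messages, and amounts of protein or complex were not measured.

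Other chromatin complexes and the enzymes that oppose Polycomb gave a scale for these levels. The median of the 9 Polycomb genes was 315 counts per kilobase, against 183 for 10 COMPASS genes and 403 for 21 SWI/SNF genes, and 4 of 10 and 15 of 21 of these were above the median gene. Among these medians the order depended on length, since in counts COMPASS stood above the Polycomb genes (1438 against 744), as it did with the union of exons (135 against 124). WDR5 had 362 counts per kilobase against 893 for EZH2, but was the higher of the pair with the union of exons (314 against 220) and by coding length (1141 against 1052). BAP1 and ASXL1, which form the enzyme that removes the PRC1 mark, had 694 and 772, and ASXL2 had 121. KDM6A and KDM6B, demethylases of the PRC2 mark, had 303 and 232. The HOX genes, classic targets of Polycomb, had mean normalized counts under 10 in 6 of 6 HOXD and 7 of 11 HOXA genes with a row, against 1 of 9 HOXB and 0 of 9 HOXC genes. Over all 35 HOX genes with a row, 21 reached 10, as did 13548 of all 19792 genes. HOXC10 was the highest HOX gene, with a mean normalized count of 2297.

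The length chosen moved some genes more than others. With the union of all exons, EZH2 fell from 893 to 220 counts per kilobase and EED from 315 to 94.1, while RING1 went from 427 to 410 and JARID2 from 129 to 124. By coding length alone, RNF2 stood at 1246 and BMI1 at 46.5. BMI1 was the lowest of the 9 and CBX8 the next lowest with all of these lengths.

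**Figure D4:**
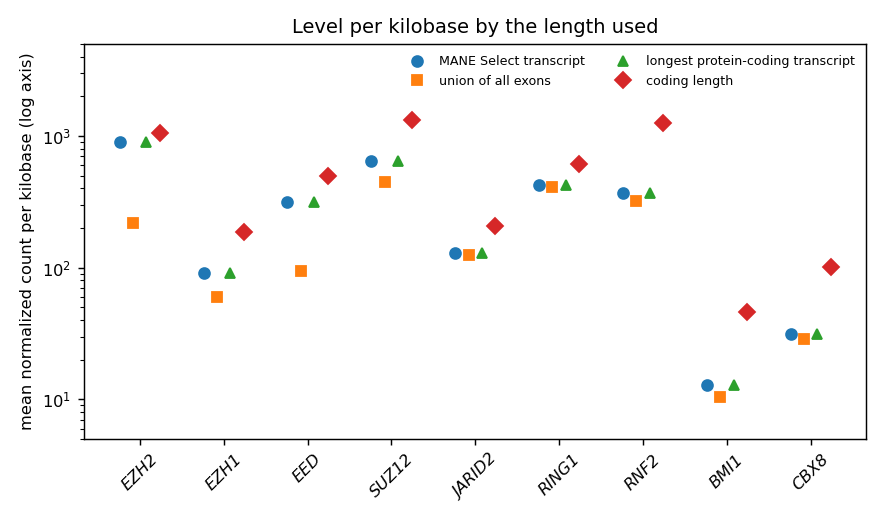
Mean normalized count per kilobase of the 9 genes (log axis) with each of 4 lengths, namely the MANE Select transcript, the union of all exons, the longest protein-coding transcript and the coding length. BMI1 lies lowest and CBX8 next lowest with each, while EZH2 and EED fall most when the union of exons is used (to 220 and 94.1).

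Sequence copies touched some of the other members as well. The whole RING1 transcript (100%) lies also on 5 alternate contigs of chromosome 6, at 99.6% identity or more, and whether these contigs were in the authors' index is not given in the sources used here. For SUZ12, 9.66% of the transcript has a copy at the pseudogene SUZ12P1, which had a mean normalized count of 229. EZH2 shares 8.40% of its transcript with EZH2P1 on chromosome 21, and JARID2 1.87% with chromosome 16. EED overlaps a long noncoding RNA on the opposite strand over 221 of 2088 exonic bases (10.6%), and whether strand was used in counting is not given in the sources used here. EZH1, RNF2 and CBX8 had neither an exonic overlap nor a copy by these criteria.

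The labelled cell type was checked against its markers. The mesenchymal genes VIM, FN1, ZEB1 and CDH2 had mean normalized counts of 47782, 30461, 7333 and 4093, whereas the epithelial genes CDH1 and EPCAM had 59.6 and 1.30. ESR1 and PGR, the hormone receptors absent in triple-negative cancer, had 0.79 and 0.80. ERBB2 (HER2), the other receptor by which triple-negative cancer is defined, had 1221. Its message was not low, at percentile 53.9 of the reference genes per kilobase, and its protein was not measured. The epithelial keratins KRT8 and KRT18 had 57.3 and 435. Of the genes of other cell types, the endothelial gene PECAM1 had 2.86, the leukocyte gene PTPRC had 44.7, which is near the 45.4 of BMI1, and CD68, a lysosomal gene used as a macrophage marker, had 1813. The part of other cell types in the Polycomb levels was not tested.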

How the data were processed

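RNA-seq libraries came from 3 vehicle and 3 DOX cultures of BT-549/tet-WDR5shRNA cells. Per the labels and the study's methods, the authors prepared stranded poly(A) libraries, aligned reads to GRCh38 with STAR, and normalized gene counts with DESeq2. The deposited signal used here is the authors' mean normalized count of each gene over all 6 libraries, scaled by library size factors and not by gene length. The table's 5 other columns (log2 fold change, standard error, Wald statistic, p-value and adjusted p-value) hold the authors' own comparison of the groups and were not used. The planned test of DOX against vehicle needed values of single libraries and was not run, and depth per library is unknown.

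Symbols were matched to GENCODE 44 (17575 directly, 576 through a RefSeq synonym, 1641 unmatched). Means were divided by the exonic length of the MANE Select transcript, otherwise the canonical or the longest protein-coding one. Copies were sought with blastn 2.17.0 (at least 95% identity over at least 100 bases) in the hg38 genome, and CpG and motif counts were taken from RefSeq promoters (GRCh38.p14) of 300 bases. The length functions were tested on simulated data. Computation used Python 3.11.15, numpy 2.4.6, pandas 2.3.3 and matplotlib 3.10.9. The 9 genes and the gene lists were chosen with earlier results of these data known. All 9 genes were named, and in the other lists any gene with a row could be, with at least the highest and lowest of each Polycomb list. One gene of the lists is not reported here and was left out of the sums and counts.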

Additional observations from a re-analysis of the deposited data

How the results depend on the processing

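The values rest on 1 pooled mean per gene, so they have no replicate error. BMI1 and CBX8 had the lowest counts of the 9 genes. How far depth limits their values, or shared sequence that of BMI1, was not tested. The log2 ratio of EZH2 to EZH1 per kilobase, 3.30, became 1.87 with the union of exons, 2.49 by coding length and 2.50 without division by length. The log2 ratio of RNF2 to RING1, -0.21, became -0.35 with the union of exons and reversed to 1.03 by coding length and 0.76 without division. The number of the 9 genes above the median gene went from 5 to 3 without division by length, and was between 4 and 6 under the other lengths and filters. The reference for these numbers was protein-coding genes, not all 19792 genes. The BMI1 share of the PCGF level, 1.06%, became 1.21%, 1.11%, 1.16% and 1.32% with the union of exons, the longest transcript, the coding length and no division. The CBX8 share of the summed level of 4 CBX genes, 4.65%, became 5.65% with the union of exons, 3.18% by coding length and 3.11% without division. Using the longest protein-coding transcript left the 2 ratios, the number of genes above the median and the CBX8 share at their values. Adding COMMD3-BMI1 to BMI1 was not run, since it had no row to analyse. No paired analysis was possible because no values of single libraries were analysed, and for the same reason other normalizations, filters and leaving out a replicate were not run for DOX against vehicle.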
